A study of Arabidopsis thaliana with 10 samples.

Results

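The plastid-encoded genes are the genes on the chloroplast chromosome of Arabidopsis (ChrC in the files). They were taken as all genes with identifiers starting with ATCG that the authors assigned to a peak on that chromosome in any of 3 lists of LIMYB ChIP-seq peaks. This gave 61 genes out of 10143 assigned in the whole series, and 178 plastid peaks out of 18916. The samples were 10 anti-GFP immunoprecipitations from whole Arabidopsis thaliana seedlings germinated for up to 12 days on plates with sucrose. All carried a YFP-LIMYB transgene and were labelled as LIMYB overexpression lines, with 2 samples of L1, 4 of L3 and 4 of L4. Every title also carries the label LIMYB-32, whose meaning is not given. L3 and L4 have replicate numbers 1 and 2 only, each on 2 samples that differ in a title suffix (_1 and _2), so their 4 samples may be 2 replicates each. The labels give no promoter for the transgene, and no wild-type seedlings, mock immunoprecipitation or input DNA is among the samples. Each line has 1 peak list with no column per sample, so no value below carries a replicate error, no test between lines was possible, and sequencing depth is unknown.

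LIMYB is a MYB-domain protein that acts in the nucleus, downstream of the receptor kinase NIK1, and the series asks which genes it controls. The plastid chromosome, by contrast, is a small circular molecule inside the chloroplast, present in many copies per cell. It keeps genes for the photosynthetic complexes, for its own ribosomes and for a bacterial-type RNA polymerase, mostly packed into operons that are transcribed together. A large stretch of it is present as an inverted repeat, so genes in that stretch exist in a pair of identical copies.

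Names were given to 57 of the 61 genes from RefSeq's table of the TAIR10.1 assembly. In 52 of them both ends of the gene were the same in the files and in that table, and in 5 (matK, ycf3, ndhD and both copies of ndhB) 1 end was. The other 4, ATCG00870, ATCG00905, ATCG01230 and ATCG01270, had no counterpart there and are given by identifier. Folds given below for a gene are those of its highest assigned peak in each list. In 10 of the 46 genes assigned in both L1 and L4 these peaks lay at different sites: matK, rps2, atpE, ATCG00870, the first copy of rps7, ATCG00905, both ycf1 loci, ndhA and the second copy of ycf2. The RefSeq table lists 84 plastid protein-coding loci. Of these, 44 (52.4%) had an assigned peak in L1, 9 (10.7%) in L3 and 55 (65.5%) in L4. For nuclear protein-coding genes the share with an assigned peak at any distance was 25.7% in L1, 0% in L3 and 24.4% in L4.

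In L1 and L4, plastid peaks were dense, tall and weakly enriched. L1 had 73 of them, or 4.73 per 10000 bp, against 2.24 per 10000 bp on the mitochondrial chromosome and 0.806 on the nuclear chromosomes. L4 had 93, or 6.02 per 10000 bp, against 2.73 mitochondrial and 0.751 nuclear. The 12 peaks of L3 were all plastid, 0.777 per 10000 bp. Peaks covered 16.0% of the plastid chromosome in L1, 2.08% in L3 and 22.9% in L4, where the length is the largest end of any peak. The fold enrichment, read as the ratio of the summit signal to a local background, had plastid quartiles of 2.72 and 3.97 in L1 (range 2.12 to 8.2), and of 2.36 and 3.23 in L4 (range 1.55 to 7.34). No plastid peak of either list reached that list's nuclear median fold (8.72 in L1 and 11.65 in L4). The pileup, the number of fragments stacked at a summit, went the other way. L1 peaks had 69 to 372 fragments and L4 peaks 114 to 405, and every plastid peak exceeded the nuclear upper quartile of its list (26 in L1 and 24 in L4). In L3 the folds ran from 10.05 to 22.47 at pileups of 18 to 57. The local background derived from pileup and fold was 23.5 to 76.3 fragments at the L1 sites, 0.0556 to 2.88 at the L3 sites and 43.6 to 133 at the L4 sites. This derivation assumes that the peak caller adds 1 to both signal and background. Without that assumption the L3 range was 1 to 3.78 fragments. How much of the plastid signal is LIMYB and how much is abundant plastid DNA in the chromatin was not tested, and no input is among the samples.

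**Figure D1:**
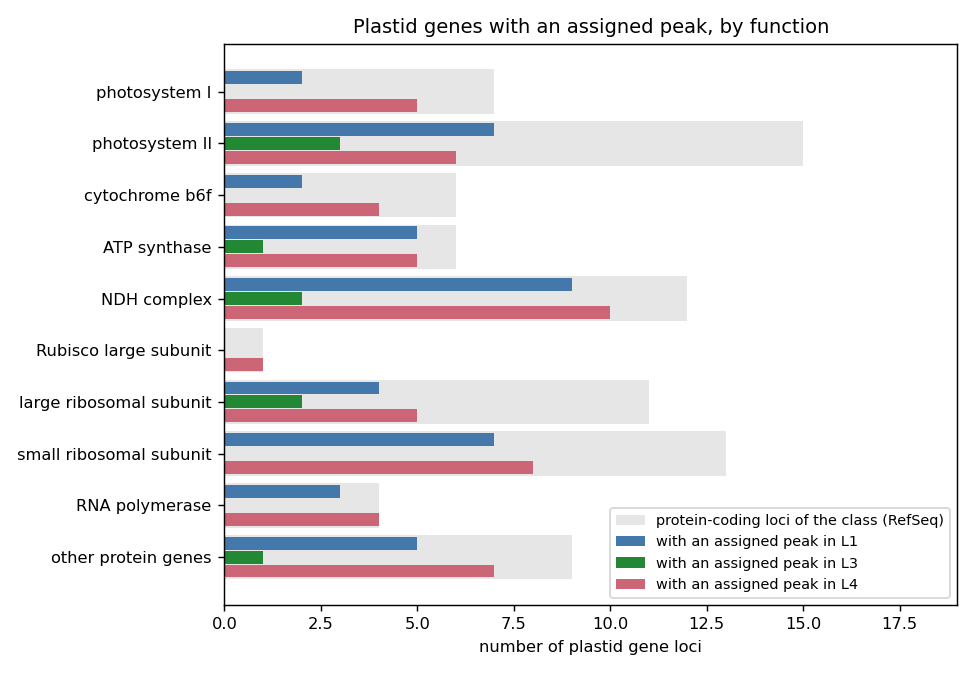
Number of plastid protein-coding loci per function class (horizontal axis; grey, all loci in RefSeq) and of those with an assigned peak in L1, L3 and L4 (coloured bars). The NDH complex and the ATP synthase have assigned peaks at most of their loci in L1 and L4. Photosystem II has them at fewer, 7 of 15 in L1 and 6 of 15 in L4. Over all 84 loci the shares are 52.4% in L1 and 65.5% in L4. The order of these classes depends on the assignment. With peaks limited to 250 bp before to 50 bp after the 5′ end, 4 photosystem II, 2 NDH and 1 ATP synthase loci stay in both lists.

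Photosystem II, the complex that splits water, had an assigned peak at 7 of its 15 plastid loci in L1, 3 in L3 and 6 in L4, and 6 were found in both L1 and L4. The site assigned to psbT, a small subunit gene, had the highest pileup of all plastid peaks in each list, 372 fragments in L1, 57 in L3 and 405 in L4, with folds of 5.32, 18.75 and 4.02. Its summits lay inside psbB, the neighbouring gene for the CP47 antenna protein that is cotranscribed with psbT. For psbC, the CP43 antenna gene, the folds were 4.87 in L1, 12.26 in L3 and 3.64 in L4. This site began upstream of psbC. By RefSeq's neighbours, the summits of the site in each list lay inside psbD, the gene for the D2 core protein. For psbZ, a small antenna-linked subunit, the folds were 4.09, 14.23 and 2.99. The psbA gene for the D1 protein, the most rapidly turned-over subunit, had 3 assigned peaks in L1 and 2 in L4. The highest of them had folds of 4.57 and 4.38. The small subunit gene psbL had 4.59 in L1 and 3.88 in L4, and psbB itself 2.62 and 2.23. psbI was assigned a peak in L1 alone, with a fold of 2.54. psbK, psbM, psbD, psbJ, psbF, psbE, psbN and psbH had no assigned peak in any list. By RefSeq's neighbours, the summit of the psbL peak lay inside psbF in L1 and inside psbE in L4.

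Photosystem I had an assigned peak at 28.6% of its loci in L1 and 71.4% in L4, and the cytochrome b6f complex at 33.3% and 66.7%. Over all 84 loci the shares were 52.4% in L1 and 65.5% in L4. The L4 shares of both classes were thus near that of all loci, and the difference between the lists carries no test. Of 7 photosystem I loci, 2 had a peak in L1 and 5 in L4. The reaction-centre gene psaB had a fold of 2.85 in L1 and one of 2.98 in L4, and psaI, a small subunit, 3.27 and 2.66. The other core gene psaA (2.47) and the assembly factor genes ycf3 (1.71) and ycf4 (2.59) had an assigned peak in L4 alone. An L1 peak did touch psaA, at plastid positions 39597 to 39863, but was assigned to psaB. psaJ and psaC had none. Of 6 cytochrome b6f loci, petB, for cytochrome b6, was found in both, at 4.55-fold in L1, 3.2-fold in L4 and nearly equal pileups of 315 and 314 fragments. petD, for subunit IV, was in L1 alone (2.55). petA (2.58), for cytochrome f, and the small subunit genes petN (1.8) and petG (1.55) were in L4 alone, and petL had no peak. The petG peak had the lowest fold of all 178 plastid peaks.

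The plastid ATP synthase had an assigned peak at 5 of its 6 loci in both L1 and L4. atpA, for subunit alpha of the catalytic head, had folds of 4.95 in L1, 11.45 in L3 and 4.41 in L4, with pileups of 286, 19 and 399 fragments. Its 3 summits fell inside the gene, at plastid positions 11075, 11080 and 11081. The genes of the membrane part followed: atpF (subunit b) had 4.38 in L1 and 2.78 in L4, atpI (subunit a) 3.59 and 2.8, and atpH (the ring subunit c) 2.27 and 2.73. atpE, for the inhibitory subunit epsilon, had 2.9 in L1, at a peak inside the gene where the overlapping L4 peak had 2.71. Its highest L4 peak (2.95) lay upstream at 53130 to 53583 and did not touch the gene. atpB, for subunit beta, had no assigned peak, although by RefSeq's neighbours the summit of that upstream L4 peak lay inside it. Only 1 of the 5 loci had a peak in both lists within 250 bp before to 50 bp after its 5′ end, and 3 of the 5 at or above the median fold.

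The NDH complex, which returns electrons from ferredoxin to the plastoquinone pool, had an assigned peak at 9 of its 12 loci in L1, 2 in L3 and 10 in L4. The 9 of L1 were all among the 10 of L4. The site assigned to ndhK had the highest fold of L3, 22.47, and was 4th by fold in L1 (6.21) and 7th in L4 (4.18). Its summits lay at 50072 in L1, 50071 in L3 and 50075 in L4, just beyond the 5′ end of ndhK. By RefSeq's neighbours, these summits lay inside ndhC. ndhF, for a proton-channel subunit, had folds of 4.19, 10.9 and 3.07. The other members spanned 2.29 to 3.3 by fold in L1 and 2.13 to 3.84 by fold in L4. They were ndhI (3.3 and 2.84), ndhA (3.14 and 2.48), ndhE (3.01 and 2.59), ndhD (2.63 and 2.67), ndhG (2.29 and 2.13), and ndhB in its second (2.72 and 3.84) and first copy (2.79 and 3.14). ndhJ was assigned a peak in L4 alone (2.39), which lay inside ndhK and did not touch ndhJ. ndhC and ndhH had no assigned peak. By RefSeq's neighbours, the ndhA peak of 2.48 in L4 and one of 2.47 in L1 had summits inside ndhH. Most peaks of the class lay inside or beyond the start of the assigned gene. With peaks limited to 250 bp before to 50 bp after the 5′ end, 2 loci stayed in both L1 and L4. With peaks at or above the median fold of their list, 3 did.

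Of 11 large-subunit loci of the plastid ribosome, 4 had a peak in L1, 2 in L3 and 5 in L4, and of 13 small-subunit loci 7, 0 and 8. The second copy of rpl2, a core protein of the large subunit, carried the highest plastid fold of L1 (8.2) and of L4 (7.34), and had 18 in L3. The first copy had 4.27 in L1 and 3.58 in L4, at peaks across its 5′ end. The values of the second copy are from peaks across its 3′ end, so these are not mirrored sites. rpl14 had 3.96, 11.76 and 3.3 in L1, L3 and L4, with all 3 summits inside its neighbour rpl16, which itself had 2.9 in L1 and 2.51 in L4. The second copy of rpl23 had a fold of 6.44 in L4, where the peak spanned the whole gene, and was touched by an L1 peak assigned to rpl2. rpl20, rpl22, rpl32, rpl33, rpl36 and the first copy of rpl23 had none assigned. By RefSeq's neighbours, the summits assigned to the first copy of rpl2 lay inside the first copy of rpl23. In the small subunit, rps4 had 4.38 in L1 and 3.39 in L4, rps16 4.17 and 3.03, and rps19 3.95 and 4.41. The summits of the rps19 peaks lay inside the first copy of rpl2 in both lists, and the L1 peak did not touch rps19. The second copy of rps7 had 3.57 and 3.36, and the first 3.77 and 3.23. rps2 (2.26 and 2.35) and rps14 (2.12 and 1.95) were the weakest of those in both lists. No peak of any list touched either gene, and the summits lay inside rpoC2 and psaB. Where peaks had to touch the assigned gene, 4 of the 7 small-subunit loci in both L1 and L4 stayed. rps12 was in L4 alone (2.23), and rps3, rps15 and rps18 were among those with none.

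The plastid-encoded RNA polymerase had a peak at 3 of its 4 loci in L1 and at all 4 in L4. rpoB had a fold of 3.42 in L1 and one of 2.65 in L4, and rpoC2 3.37 and 2.72. rpoC1 had 2.63 with 135 fragments in L1, and 4.14 with 385 fragments in L4, the fifth-highest pileup of L4. rpoA was in L4 alone (2.31), at a peak that did not touch it. In both lists the summits of these rpoC2 peaks lay inside rpoC1, and those of the rpoC1 peaks inside rpoB. Of the 3 loci in both lists, 1 stayed with peaks from 250 bp before to 50 bp after the 5′ end. With peaks at or above the median fold, 0 stayed. rbcL, for the large subunit of Rubisco, was assigned 1 peak, across its 5′ end in L4 (fold 1.96, 186 fragments). A second L4 peak at 56059 to 56608, with a fold of 2.88 and 283 fragments, had its summit inside rbcL but was assigned to accD. No peak of L1 or L3 touched rbcL. Among the remaining protein genes, ccsA, needed for cytochrome c assembly, had 3.97, 10.05 and 3.09 in L1, L3 and L4. The intron maturase gene matK had 3.14 in L1, where the overlapping L4 peak had 2.76, and an upstream peak of 3.32 in L4 alone. The highest peaks of the ycf1 loci, at different sites in the 2 lists, had 3.25 in L1 and 2.7 in L4, and 3.39 in L1 and 3.23 in L4. The second copy of ycf2 had 3.28 in L1, where the overlapping L4 peak had 2.4, and its highest L4 peak had 2.92. The first copy was assigned a peak in L4 alone (2.08). Peaks with summits inside this copy, of 3.94 in L1 and of 3.98 and 3.87 in L4, were assigned to ATCG00870. accD, for a subunit of the fatty-acid enzyme acetyl-CoA carboxylase, was assigned a peak in L4 alone, the one inside rbcL. The peaks with summits inside accD itself, 3.27 in L1 and 2.66 in L4, were those assigned to psaI. cemA and clpP had no assigned peak, although by RefSeq's neighbours the summit of an L4 peak assigned to petA lay inside cemA.

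The 12 sites of L3 were found in all 3 lists and were assigned to the same gene in each. By class they were 3 photosystem II genes (psbC, psbZ and psbT), 2 NDH genes (ndhK and ndhF), 2 large-subunit ribosomal genes (rpl14 and rpl2), atpA, ccsA, and the unnamed ATCG00870, ATCG00905 and ATCG01230. ATCG01230 had folds of 6.23, 19.35 and 4.74 in L1, L3 and L4, and its mirror copy ATCG00905 had 2.96, 12.67 and 3.59 at the overlapping peaks. ATCG01270, in the second repeat copy, had no L3 peak, and its highest folds were 5.64 (L1) and 4.16 (L4). Its mirror copy ATCG00870 had 4.26, 15.83 and 3.14 at its L3 site. By fold, rpl2 was the highest of the 12 sites in L1 and L4, and ndhK in L3. The pileup of the rpl2 site was 200 fragments in L1, 18 in L3 and 326 in L4. The L3 sites were among the tallest rather than exactly the tallest sites of the other lists. By pileup, 8 of the 12 were among the top 12 plastid peaks of L1 and 9 among those of L4, and by fold 6 and 5. The lowest-ranked were ATCG00905 in L1 (51st by pileup, 43rd by fold), and in L4 ATCG00870 by pileup (55th) and psbZ by fold (32nd). Summits of L3 lay a median of 17.5 bp from those of L1 and 17.5 bp from those of L4, and 9 of 12 were within 50 bp in each. The widest separations were 208 bp at rpl2 in L1 and 557 bp at ndhF in L4, where a single L4 peak of 921 bp spans 2 peaks of L1.

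**Figure D2:**
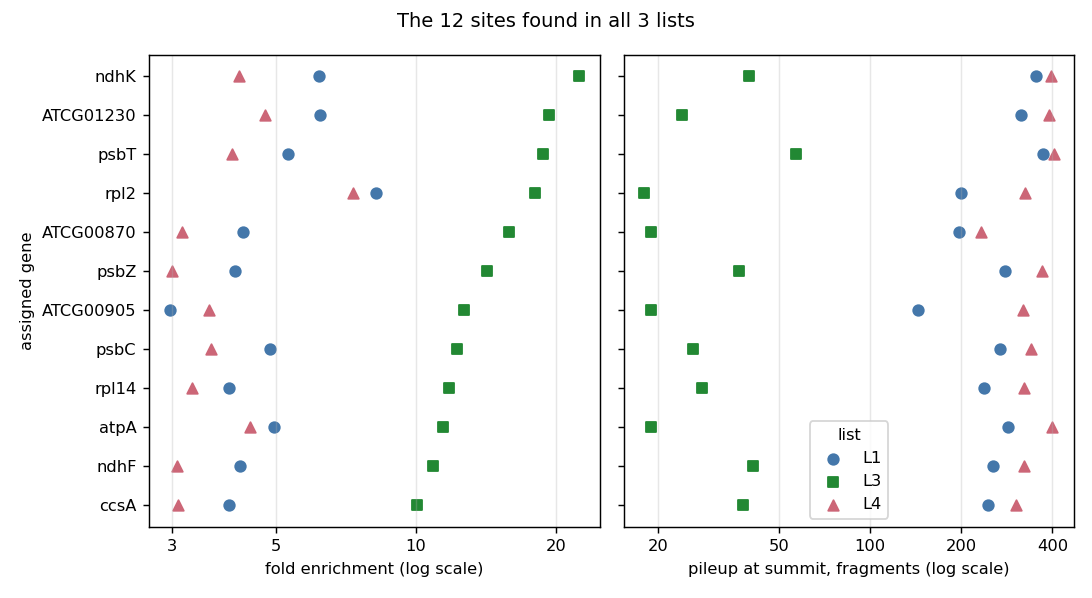
Fold enrichment (left) and pileup at the summit in fragments (right), both on log axes, of the 12 plastid sites found in all 3 lists, ordered by fold in L3. L3 folds (10.05 to 22.47) lie to the right of those of L1 and L4 at every site, and L3 pileups (18 to 57) lie to the left. The L3 list holds no peak with a fold below 10.05, while the L1 and L4 lists start at 1.74 and 1.55.

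By the authors' position classes, a larger share of plastid than of nuclear peaks crossed a 5′ end, and a smaller share lay downstream; the difference was not tested. Across the 5′ end of the assigned gene lay 20.5% of plastid peaks in L1 (95% Wilson interval 12.9 to 31.2; nuclear 5.44%) and 21.5% in L4 (14.4 to 30.9; nuclear 5.56%). Inside the gene lay 39.7% in L1 (29.3 to 51.2; nuclear 26.0%) and 32.3% in L4 (23.6 to 42.3, which holds the nuclear 27.8%). Downstream lay 1.37% in L1 (0.242 to 7.36; nuclear 19.5%) and 2.15% in L4 (0.592 to 7.51; nuclear 18.9%). The intervals cover counting error only, and neighbouring peaks are not independent. The plastid chromosome is gene-dense, and the 61 genes alone take up 51.1% of it. Of the summits, 69.9% in L1, 66.7% in L3 and 72.0% in L4 fell inside 1 of these 61 genes. The 61 genes were chosen for having an assigned peak, so these shares cannot be read against the 51.1%. Summits inside other plastid genes are not counted in them.

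The authors' assignment follows the nearest 5′ end, and in operons this often names a neighbour. Of 21 peaks called upstream in L1, 11 had their summit inside another of the 61 genes, as did 2 of 4 in L3 and 14 of 30 in L4. Summits inside genes other than the 61 are not in these counts. By RefSeq's neighbours, the L3 upstream peaks assigned to psbC and ndhK had summits inside psbD and ndhC. Other upstream peaks had summits inside ndhH (L1 and L4) and atpB (L4). The L1 peak at 20589 to 20824 was assigned to rpoC2 as upstream, with its summit inside rpoC1, and that at 39597 to 39863 was assigned to psaB with its summit inside psaA. Counts of genes per class therefore depend on this choice. Only 24 peaks in L1, 7 in L3 and 31 in L4 reached the stretch from 250 bp before to 50 bp after the assigned 5′ end.

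**Figure D3:**
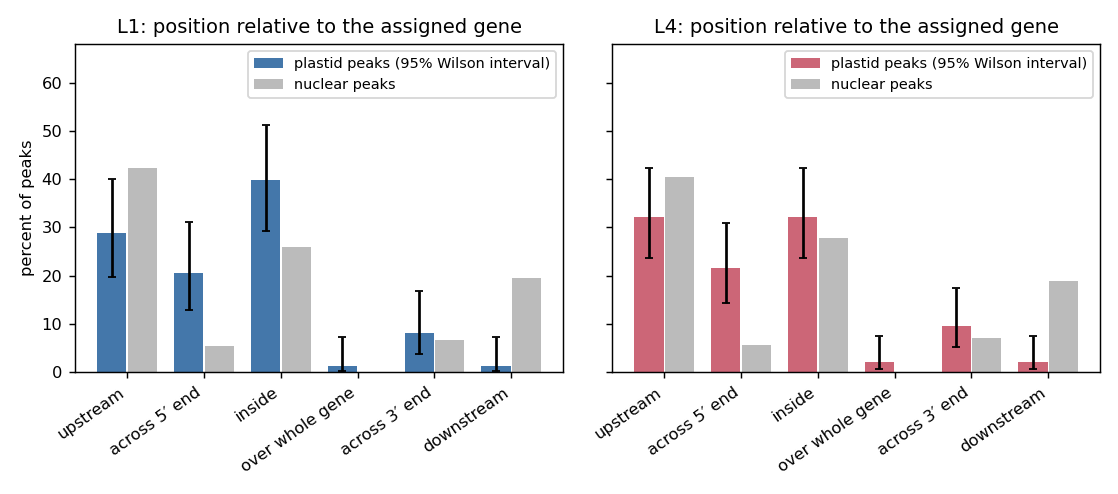
Share of peaks by the authors' position class relative to the assigned gene, for plastid peaks (coloured, with 95% Wilson intervals) and nuclear peaks (grey) in L1 and L4. Plastid bars are higher across the 5′ end (20.5% and 21.5%) and lower downstream (1.37% and 2.15%).

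The lists were similar in where plastid peaks lay. Of 73 L1 peaks, 67 (91.8%, 95% Wilson interval 83.2 to 96.2) met a peak of L4. In the other direction 65 of 93 (69.9%, 59.9 to 78.3) met a peak of L1. The nuclear shares were 45% of L1 peaks and 48.2% of L4 peaks. L4 peaks cover 22.9% of the plastid and 1.97% of the nuclear chromosomes, so an overlap by position alone is more frequent on the plastid; no test of this was made. Joined across lists, the 178 peaks formed 99 stretches: 12 held peaks of all 3 lists, 53 of L1 and L4, 28 of L4 alone and 6 of L1 alone. Peaks found in 1 list had lower median folds, with overlapping ranges. The 28 L4 peaks outside L1 had a median fold of 2.34 (1.55 to 3.87), and the 65 inside had 2.91 (1.95 to 7.34). The 6 L1 peaks outside L4 had a median of 2.68 (2.54 to 2.92), and the 67 inside had 3.25 (2.12 to 8.2). By gene, 46 were in both lists, 13 in L4 alone and 2, psbI and petD, in L1 alone. Of the 13, psaA, accD, the first copy of ycf2 and the second copy of rpl23 were touched by an L1 peak assigned to another gene.

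Shared sites lined up closely. The summits of the 67 overlapping pairs lay a median of 14 bp apart (quartiles 3 and 40), and 56 pairs were within 50 bp. Pileup was higher in L4 at 66 of the 67, and fold was higher in L1 at 50. Across the pairs, folds had a Spearman's rho of 0.585 and a Pearson's r of 0.780, and pileups 0.569 and 0.641. These are descriptions, since the points share 1 library set per list and the same local background, and some L4 peaks pair with 2 L1 peaks. Without the second repeat copy, the 52 remaining pairs gave 0.724 and 0.727 for fold.

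**Figure D4:**
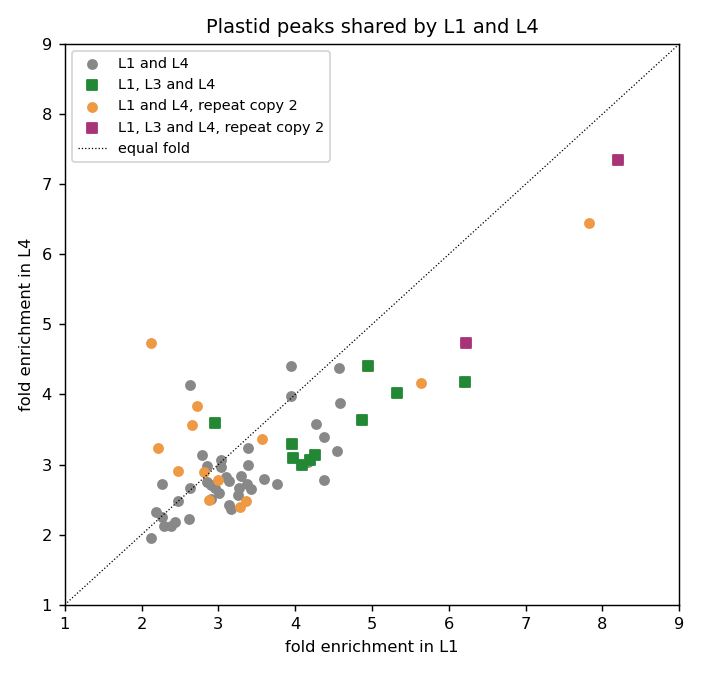
Fold enrichment in L1 (horizontal) and L4 (vertical) of the 67 pairs of overlapping plastid peaks; squares are sites also in L3, and orange and purple points lie in the second repeat copy. The rpl2 site at the upper right has 8.2 in L1 and 7.34 in L4, and most points (50 of 67) lie below the dotted line of equal fold.

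The inverted repeat gives each site within it a mirror copy with the same gene content, and the values of both copies are set side by side within each list. From 6 gene pairs of equal length whose positions mirror each other, the first copy was set at plastid positions 84337 to 109405 and the second at 129244 to 154312. How reads that match both copies were placed is not given in the sources used here. As the copies are identical, a read wholly inside the repeat matches both. Differences between mirrored peaks therefore cannot be read as differences in binding between the copies. The same holds for the values given above for a single copy of a gene. L1 had 15 peaks in the second and 13 in the first copy, and 12 in each had a mirror partner. L4 had 16 in the second and 17 in the first, with 14 and 15 mirrored. L3 had 2 in each, with 1 pair.

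Pileups and folds varied about as widely between mirrored sites. The ratio of pileups, second over first copy, had a median of 0.967 in L1 (0.623 to 2.19) and 1.04 in L4 (0.597 to 1.68). For folds the ratio had a median of 0.961 in L1 (0.627 to 2.10) and 1.18 in L4 (0.667 to 1.80). The widest gap in L1 was at the pair ATCG01230 and ATCG00905, with 315 fragments at 139604 to 139936 in the second copy and 144 fragments at 98784 to 99006 in the first. At the outer end of the repeat, the rpl2 site at 153838 to 154396 had 200 fragments in L1, and its mirror at 84308 to 84804, assigned to rps19, had 207. The folds were 8.2 at rpl2 and 3.95 at rps19, with a derived background of 23.5 fragments at rpl2 and 51.7 at rps19. L4 gave the same picture, with pileups of 326 and 377, folds of 7.34 and 4.41, and backgrounds of 43.6 and 84.7. The next pair inward, assigned to rpl2 in the second copy and to the other rpl2 in the first, had folds of 7.82 and 4.27 in L1 at pileups of 210 and 206. Its L4 counterpart, assigned to rpl23 in the second copy, had 6.44 and 3.58 at 317 and 287 fragments. The backgrounds of mirror pairs more than 5000 bp from the outer end differed little, with ratios of 0.907 to 1.16 in 10 pairs of L1 and 0.896 to 1.03 in 12 pairs of L4. The highest plastid folds of both lists sat at the end of the linear map, where the background was low. Why it was low there was not tested.

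**Figure D5:**
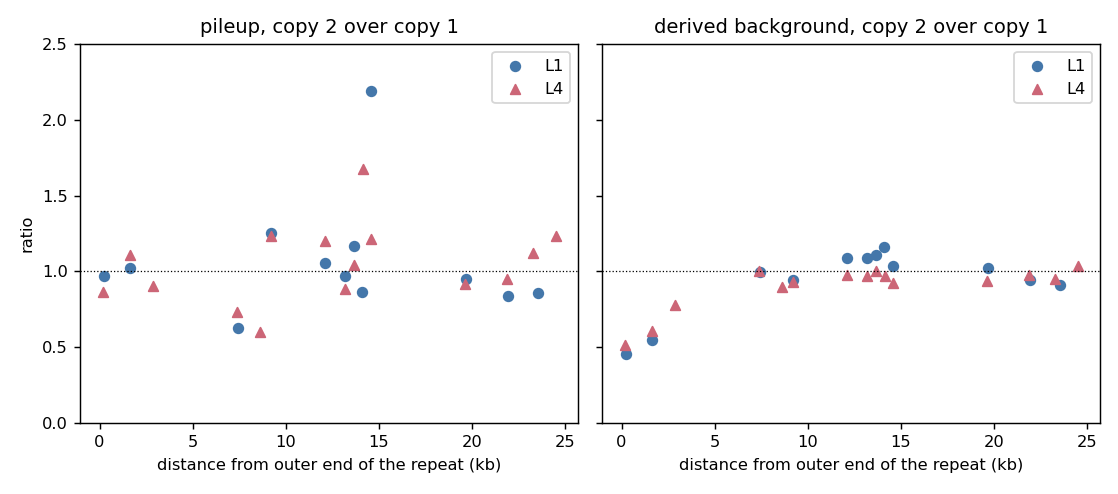
Ratio of pileup (left) and of the derived background (right), second over first repeat copy, at mirrored plastid peaks of L1 and L4, against the distance in kb from the outer end of the repeat. Background ratios lie between 0.896 and 1.16 beyond 5000 bp and fall below that towards the outer end.

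The ribosomal RNA part of the repeat, between ATCG00905 and ATCG01000 and between ATCG01130 and ATCG01230, held no protein gene in the files. RefSeq lists the ribosomal RNAs and several transfer RNA genes there, so its peaks were assigned to protein genes up to 5088 bp from the edge of the peak. Summits in the second copy of this stretch numbered 5 in L1, 1 in L3 and 5 in L4, and in the first copy 5, 1 and 6. Apart from the sites next to ATCG00905 and ATCG01230, these peaks had folds of 2.22 to 3.25 in L1 and 1.62 to 3.23 in L4. Peak counts for ATCG00905, ATCG01230 and both ycf1 loci include them. The longest stretch without a peak in L1 ran from 64237 to 72708, over petL, petG, psaJ, rpl33, rps18, rpl20, rps12 and clpP among others. In L4 it ran from 27898 to 32816, over petN, psbM and transfer RNA genes. L1 also had no peak from 25466 to 32981, which includes that stretch.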

How the data were processed

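Peaks were called by the authors with MACS2, per the submitters' processing notes; its version, settings and control, the aligner, the genome build and any pooling of replicates are not given there or in the labels. Each deposited list gives, per the file headers, the pileup signal at the summit, a fold enrichment ratio and −log10 q-values, and the assigned mRNA feature by overlap or nearest 5′ end. These are the authors' values per peak, used to describe and rank peaks within a list. Deposited peaks on ChrC were counted once by position.

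The members, gene classes and comparisons were chosen with earlier results of these data known. Named genes were all genes of the L3 sites, up to 5 per class by the lower fold of L1 and L4, the 5 highest folds and pileups of L1 and of L4, genes with a peak in 1 list only and class members without a peak; the other assigned genes were added so that every member is accounted for. Classes follow RefSeq symbols, and some members without a peak are not reported here. Since no build is named in the files, RefSeq gave names and neighbours only, and positions are those of the files. A summit was placed inside a gene that RefSeq lists between the last gene ending before the summit and the first starting after it. The identity of both ends in 52 genes is the basis of the names. Peaks were shared at an overlap of at least 1 bp. Background was (pileup + 1) / fold − 1, assuming a pseudocount of 1 in the peak caller. Shares have 95% Wilson intervals. No plastid sequence was used here, so base composition and motifs were not analysed. Overlap counts were checked on simulated peaks. Python 3.11.15, pandas 2.3.3, numpy 2.4.6, scipy 1.17.1 and matplotlib 3.10.9 were used.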

Additional observations from a re-analysis of the deposited data

How the results depend on the processing

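Every peak value comes from a single list per line, so no replicate could be left out, and the depth behind the lists is unknown. No paired analysis was possible because the lists carry no column per sample. Overlaps of at least 50% of the shorter peak, or summits within 100 bp, changed no count of shared peaks by over 1.5 times. Keeping peaks at or above the median fold of their list left 28 L1 peaks shared with L4, 28 L4 peaks shared with L1 and 6 L3 peaks shared with both. Genes with a peak then numbered 36 in L4, 6 in L3, 27 in L1 and L4 together, and 6 in all 3 lists. The window from 250 bp before to 50 bp after the 5′ end left 24 genes in L1, 7 in L3, 31 in L4, 20 in both L1 and L4 and 7 in all 3. By summit, 43.8% of L1 and 45.2% of L4 peaks lay upstream and 50.7% and 50.5% on the gene, against 28.8% and 32.3%, and 69.9% and 65.6%, by peak edges. At or above the median fold, 18.9% of L1 and 21.3% of L4 peaks lay upstream, 81.1% and 78.7% on the gene and 0% of either downstream. The inverted repeat held 28 peaks in L1 (15 and 13 in the second and first copy alone) and 33 in L4 (16 and 17). Without a pseudocount the median L3 background was 1.95 instead of 1.01. Within classes, 13 of 30 counts of genes in both L1 and L4 moved by over 1.5 times, all to lower counts. Counts by copy, genes touched by any peak and genes without the second copy were chosen after seeing the data. Finding the copies by sequence was not run.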
